A study of Mus musculus with 6 samples.

Results

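The nucleolar ribosome biogenesis factors described here are 52 mouse genes, named one by one, whose proteins transcribe, modify, cut or assemble ribosomal RNA in the nucleolus. All 52 were found by gene symbol among the 40413 genes of the count table. They fall into 7 core proteins of small nucleolar ribonucleoproteins (snoRNPs), 6 nucleolar scaffold and ribosomal RNA transcription factors, 23 factors of the small (40S) subunit and 16 factors of the large (60S) subunit. RNA was sequenced from N2A-A5 cells, a line of the mouse neuroblastoma Neuro-2a that the labels call acceptor cells. The 3 differentiated libraries came from cells seeded for 96 h in medium with 1% fetal bovine serum and 10 µM retinoic acid and with no blasticidin. The 3 undifferentiated libraries (0 h) came from cells grown in 10% fetal bovine serum and 10 µg/mL blasticidin, an antibiotic used to hold cells that carry a resistance gene. The design text calls the libraries of a group biological replicates. Retinoic acid, serum, blasticidin and time changed together, and their shares in any difference cannot be told apart. All libraries come from 1 cell line.

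Ribosomes are assembled in the nucleolus around a long precursor RNA made by RNA polymerase I. Small nucleolar RNAs guide chemical changes of that precursor: box C/D RNAs direct 2′-O-methylation by fibrillarin, and box H/ACA RNAs direct pseudouridylation by dyskerin. The small-subunit processome folds and cuts the 5′ part of the precursor into the pre-40S particle, while a separate line of factors matures the pre-60S particle. Proliferating cells spend much of their transcription on this pathway, and many of its genes are textbook targets of the transcription factors MYC and MYCN.

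The 96 h libraries held 16.8 M, 19.0 M and 18.8 M estimated counts (M for mega), and the 0 h libraries held 17.6 M, 20.9 M and 18.2 M. Levels are CPM, counts scaled to the depth of the library with TMM-scaled library sizes, so every change is relative to that scale. A gene was called when its Benjamini-Hochberg adjusted p, over the 13705 genes that passed the filter on low counts, was under 0.05 in edgeR's quasi-likelihood test. All counts of protein-coding genes summed to 51.2% ± 1.9 of a 96 h library and 66.2% ± 2.0 of a 0 h library. Every mean of a group in the text is over 3 libraries, and a value after ± beside such a mean is its SD. Gm26917, a predicted gene, held 30.5% ± 1.6 of a 96 h library and 20.2% ± 2.2 of a 0 h library. The part of this difference in makeup in the changes below was not tested. The line's label was checked on markers. Of 12 neuroblastoma markers, 11 averaged over 1 CPM in each group, and their sum was 1143 to 1224 CPM at 96 h and 1603 to 1664 CPM at 0 h. The 7 fibroblast markers summed to 10.5 to 12.2 CPM at 96 h and 4.49 to 4.77 CPM at 0 h, with Col3a1 and Lum at 0 in every library. The 6 Schwann and glial markers summed to 8.85 to 10.7 CPM at 96 h and 2.77 to 5.11 CPM at 0 h, and the 6 macrophage markers to at most 0.351 CPM at 96 h and 0.213 CPM at 0 h, with Aif1 at 0. In bulk RNA, fewer cells of a type and less RNA per cell cannot be told apart.

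All 52 members passed the filter on low counts, with mean levels of 10.2 to 2864 CPM and at least 163 counts in every library. At 96 h, 42 members were lower, 1 (Imp4) was higher and 9 did not pass the test. Among all genes tested, 28.8% were lower and 28.7% were higher, and among protein-coding genes 32.1% were lower and 27.1% were higher. The median log2 fold change of the members was -0.48, or 71.6% of the 0 h level, against 0.03 over all genes tested. Most of the decreases were moderate: 20 members fell by at least 1.5-fold, which 11.3% of all genes did, and only Nop58 fell by at least 2-fold. In 42 members every 96 h library lay below every 0 h library, an arrangement seen in 31.7% of all genes tested. Scaling by library size alone, which shifts the median of all genes by -0.25 on the log2 scale, gave 50 lower and 0 higher members, where 42.7% of all genes were lower. The distance between the members' median and that of all genes was -0.51 with either scaling. A change of scaling moves both medians nearly alike, so it could hardly alter this distance. Where the genes compared changed, the distance was -0.46 with protein-coding genes only, -0.44 with a stricter filter and -0.725 with no filter.

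**Figure D1:**
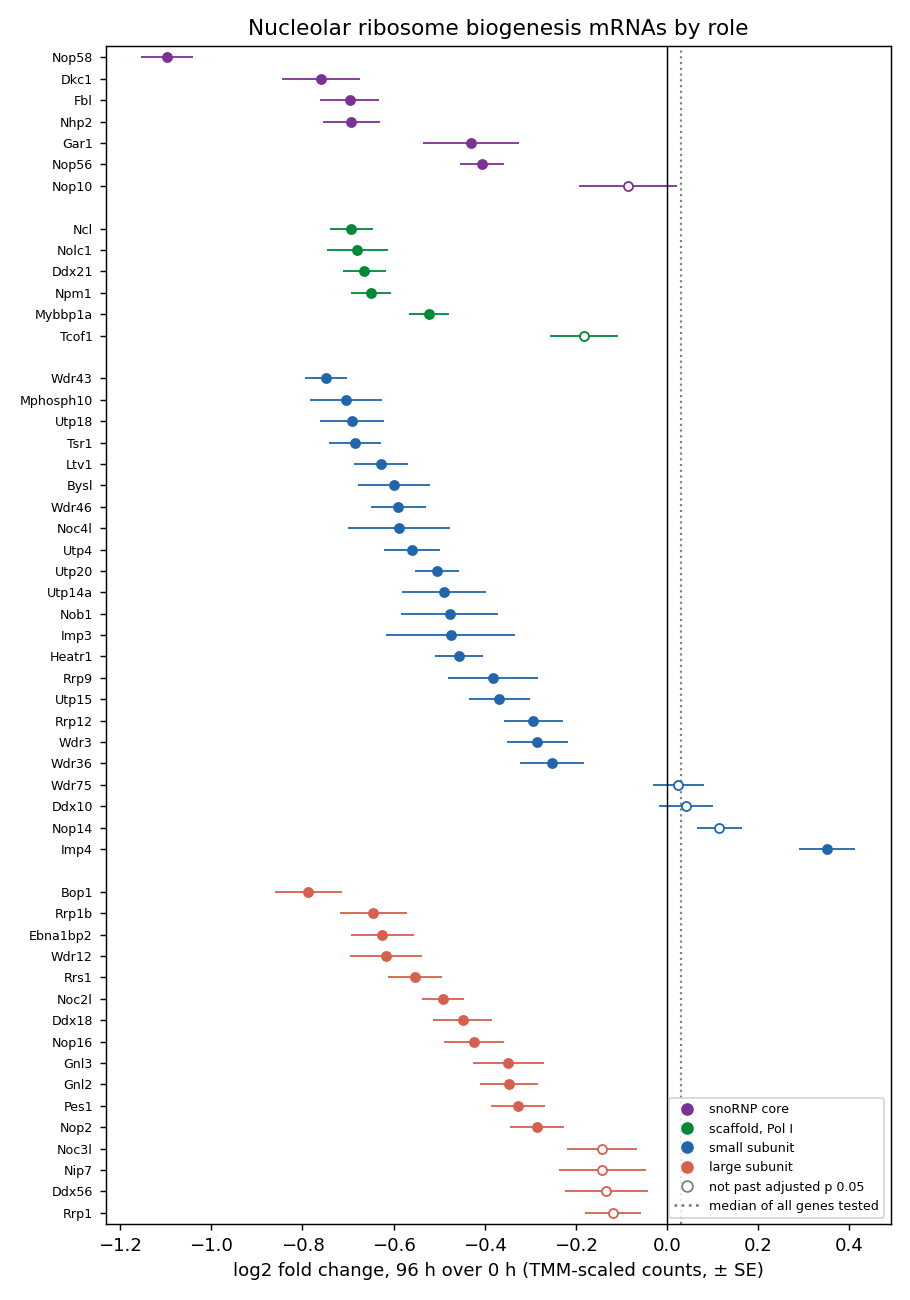
Log2 fold change of each of the 52 members, 96 h over 0 h (horizontal axis, points ± SE), ordered within the 4 role classes. Open circles mark the 9 members that did not pass the test, and the dotted line is the median of all genes tested (0.03). Nop58 lies farthest to the left and Imp4 is the filled point right of 0.

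In all 4 role classes most members were lower, with ranges that overlapped, and the differences between classes were not tested. Over all genes tested 28.8% were lower, and over protein-coding genes 32.1%. These shares are the background for each class here and for the smaller units of members described below. The snoRNP core proteins had 6 of 7 lower and a median log2 fold change of -0.69. The scaffold and transcription factors had 5 of 6 lower and a median of -0.66. The small-subunit factors had 19 of 23 lower and 1 higher, with a median of -0.48. The large-subunit factors had 12 of 16 lower and none higher, with a median of -0.39.

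**Figure D2:**
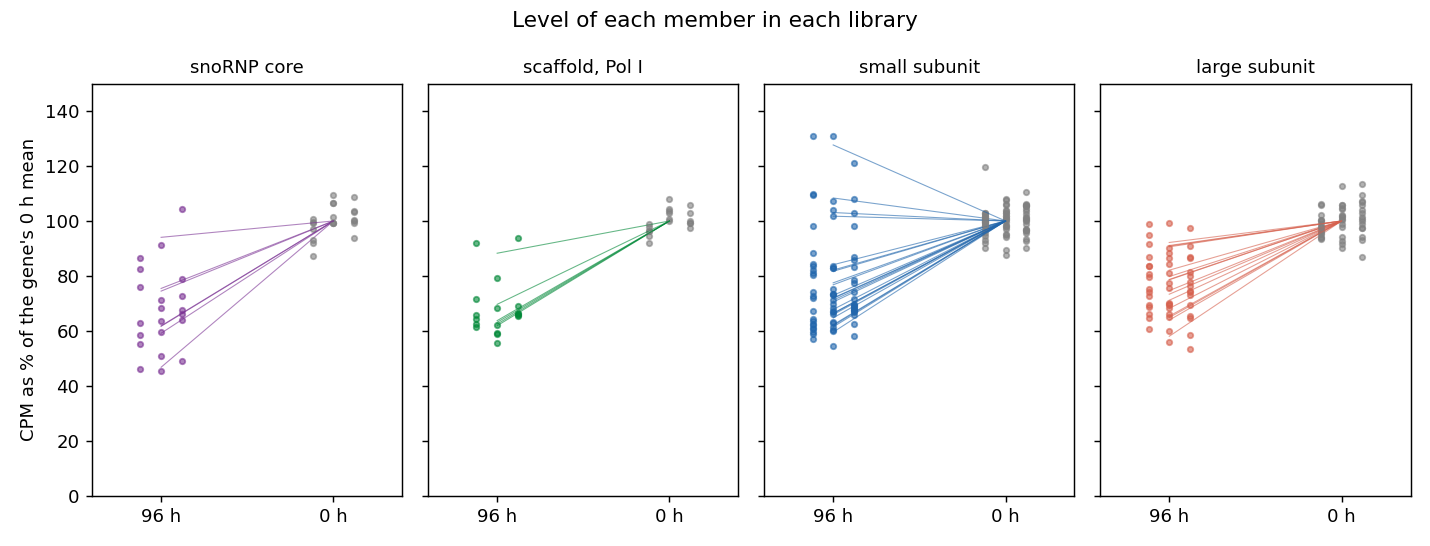
CPM of every member in every library as a percentage of that gene's 0 h mean (vertical axis), with 96 h libraries left of 0 h libraries in each of the 4 role panels. Lines join the group means, and most lines end below 100% at 96 h, while Imp4 sits at 128% in the small-subunit panel.

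Among the snoRNP core proteins, the box C/D proteins all fell, and they did so to different extents. Nop58, a scaffold protein of every box C/D particle, had 80.4, 79.2 and 85.6 CPM at 96 h, against 174, 186 and 164 CPM at 0 h. The 96 h level of Nop58 was 46.8% of the 0 h level (log2 fold change -1.10 ± 0.06 SE, adjusted p = 2.53e-09), the steepest decrease of the 52. Fbl, which encodes the methyltransferase fibrillarin, had 69.7, 80.2 and 83.5 CPM at 96 h, against 123, 125 and 131 CPM at 0 h (-0.70 ± 0.06, adjusted p = 6.84e-07). Nop56, the partner of Nop58 in the same particle, fell least. It had 168, 157 and 175 CPM at 96 h, against 219.5, 224 and 219 CPM at 0 h (-0.41 ± 0.05, adjusted p = 7.51e-06). The groups did not overlap for any of these genes.

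Of the 4 box H/ACA proteins, 3 fell. Dkc1, the pseudouridine synthase dyskerin, had 36.2, 29.2 and 36.7 CPM at 96 h, against 53.6, 61.4 and 57.8 CPM at 0 h (-0.76 ± 0.09, adjusted p = 5.02e-06). Nhp2, which binds the guide RNA beside dyskerin, had 50.2, 51.0 and 57.9 CPM at 96 h, against 86.3, 85.3 and 85.9 CPM at 0 h (-0.69 ± 0.06, adjusted p = 5.13e-07). Gar1, which helps the enzyme load and release its substrate, had 17.6, 14.6 and 15.5 CPM at 96 h, against 18.6, 23.4 and 22.0 CPM at 0 h (-0.43 ± 0.11, adjusted p = 0.00338). The highest 96 h library of Gar1 and its lowest 0 h library lay close together. Nop10, the small protein that binds dyskerin's catalytic domain, had 13.6, 14.3 and 16.4 CPM at 96 h, against 14.4, 15.6 and 17.1 CPM at 0 h. Its libraries overlapped and its log2 fold change was -0.09 ± 0.11 (adjusted p = 0.517).

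In the scaffold and transcription class, 5 of 6 genes fell, and those 5 did so to a like extent, with log2 fold changes of -0.69 to -0.52. Ncl, which encodes nucleolin, an RNA-binding protein of the nucleolar fibrillar zones, had 1757, 1684 and 1875 CPM at 96 h, against 2763, 2992 and 2839 CPM at 0 h (-0.69 ± 0.05, adjusted p = 3.57e-08). Npm1, or nucleophosmin, a chaperone of the granular zone where pre-60S particles mature, had 652, 649 and 694 CPM at 96 h, against 1032, 1082 and 1018 CPM at 0 h (-0.65 ± 0.04, adjusted p = 2.68e-08). Both stood well below their 0 h libraries. Together, Ncl and Npm1 took 0.436% ± 0.021 of protein-coding counts at 96 h and 0.643% ± 0.025 at 0 h. All 52 members took 1.02% ± 0.03 of protein-coding counts at 96 h and 1.39% ± 0.04 at 0 h, and without Ncl and Npm1 the remaining members took 0.586% ± 0.013 at 96 h and 0.748% ± 0.013 at 0 h. The groups did not overlap for these shares (exact two-sided permutation p = 0.1 each, the smallest that 3 libraries against 3 allow).

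Nolc1, a phosphoprotein that shuttles between nucleolus and Cajal bodies and binds snoRNPs, had 125, 105 and 126 CPM at 96 h, against 179, 189.6 and 201 CPM at 0 h (-0.68 ± 0.07, adjusted p = 1.26e-06). Ddx21, an RNA helicase that coordinates RNA polymerase I transcription with processing, had 278, 257 and 286 CPM at 96 h, against 424, 447 and 431 CPM at 0 h (-0.66 ± 0.05, adjusted p = 5.39e-08). Mybbp1a, a nucleolar protein that binds RNA polymerase I and precursor RNA, had 238, 227 and 230.3 CPM at 96 h, against 321, 335 and 342 CPM at 0 h (-0.52 ± 0.04, adjusted p = 2.29e-07). These 3 fell with no overlap between groups. Tcof1 encodes treacle, a cofactor of ribosomal DNA transcription. It had 84.3, 72.5 and 85.7 CPM at 96 h, against 84.1, 99.0 and 91.6 CPM at 0 h, with overlapping libraries (-0.18 ± 0.07, adjusted p = 0.0510). This p lay at the threshold, and Tcof1 was called lower with DESeq2 size factors (adjusted p = 0.0470), without the first or the third 96 h library (0.0457 and 0.0312) and without the first 0 h library (0.0199). It was also called lower with the Wald test of DESeq2 (0.0353), limma-voom (0.0437), no filter (0.00174) and library size only (0.000663).

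Within the small-subunit processome, the groups of proteins that join the precursor as units shifted mostly downward. UtpA, the first such unit to bind the 5′ end of the precursor, had 4 of its 5 members here lower. Wdr43, a UtpA member, had 113, 118 and 112 CPM at 96 h, against 193, 189 and 194 CPM at 0 h (-0.75 ± 0.05, adjusted p = 1.18e-08). The other UtpA members that fell were Utp4 (-0.56), Heatr1 (-0.46) and Utp15 (-0.37). Wdr75, of the same unit, had 62.8, 66.6 and 66.0 CPM at 96 h, against 65.5, 63.1 and 63.4 CPM at 0 h, and did not pass (0.03 ± 0.06, adjusted p = 0.714). All 3 members of the UtpB unit were lower: Utp18 (-0.69), Wdr3 (-0.28) and Wdr36 (-0.25). The call of Wdr36 did not hold with upper-quartile scaling (adjusted p = 0.0520).

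The MPP10 unit, which helps the U3 snoRNA pair with the precursor, moved in both directions. Mphosph10 had 38.3, 33.5 and 41.1 CPM at 96 h, against 57.1, 64.9 and 61.8 CPM at 0 h (-0.70 ± 0.08, adjusted p = 4.37e-06). Imp3 had 11.5, 9.53 and 9.58 CPM at 96 h, against 16.9, 12.4 and 13.1 CPM at 0 h (-0.47 ± 0.14, adjusted p = 0.0108), and its call rested on the first 0 h library, without which the adjusted p was 0.0607. Imp4, the third protein of the unit, was the single member of the 52 that rose. It had 59.7, 59.6 and 55.2 CPM at 96 h, against 44.9, 44.6 and 47.2 CPM at 0 h, or 1.28-fold (0.35 ± 0.06, adjusted p = 0.000219). Every 96 h library of Imp4 lay above every 0 h library, but with library size as the only scaling its log2 fold change was 0.10 and did not pass (adjusted p = 0.212).

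Other processome proteins that fell included Utp20, a large scaffold protein, with 88.7, 85.1 and 83.8 CPM at 96 h, against 121, 122 and 122 CPM at 0 h (-0.50 ± 0.05, adjusted p = 9.59e-07). Wdr46 (-0.59), Utp14a (-0.49) and the U3 snoRNP protein Rrp9 (-0.38) fell too. Nop14 and Noc4l form a pair in the processome in yeast. Noc4l had 12.3, 12.1 and 15.9 CPM at 96 h, against 19.6, 19.6 and 21.5 CPM at 0 h (-0.59 ± 0.11, adjusted p = 0.000484). Nop14 had 118, 116 and 116 CPM at 96 h, against 103, 111 and 109 CPM at 0 h, without overlap but short of the threshold (0.12 ± 0.05, adjusted p = 0.0613). Nop14 was called higher in a fit of protein-coding genes alone (0.15, adjusted p = 0.0104). It was also called higher with upper-quartile factors (adjusted p = 0.00421) and with a stricter filter (0.00649), and with library size only its value was -0.14. Ddx10, an RNA helicase, had 66.3, 61.7 and 59.6 CPM at 96 h, against 61.5, 61.7 and 58.8 CPM at 0 h (0.04 ± 0.06, adjusted p = 0.567), and its libraries overlapped.

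The 5 factors that act on the pre-40S particle late, up to the cytoplasm, were all lower. Tsr1, a GTPase-like protein that blocks premature joining of initiation factors, had 42.0, 43.8 and 43.3 CPM at 96 h, against 70.2, 70.3 and 66.9 CPM at 0 h (-0.68 ± 0.06, adjusted p = 2.26e-07). Ltv1, which sits on the beak of the particle, had 62.1, 60.7 and 64.7 CPM at 96 h, against 99.4, 99.9 and 90.3 CPM at 0 h (-0.63 ± 0.06, adjusted p = 6.92e-07). The groups lay far apart in both. Bysl (-0.60), Nob1, the nuclease that makes the 3′ end of 18S rRNA (-0.48), and the export factor Rrp12 (-0.29) completed the set.

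In the large-subunit class, the PeBoW complex, which is needed to process the 32S precursor, was lower in all 3 parts. Bop1 had 64.2, 55.5 and 52.8 CPM at 96 h, against 99.1, 93.5 and 105 CPM at 0 h (-0.79 ± 0.07, adjusted p = 6.66e-07). Wdr12 followed at -0.62 ± 0.08 and Pes1 at -0.33 ± 0.06. Bop1 had the largest decrease of the class and Pes1 one of the smaller ones. Rrs1, which recruits the 5S particle in yeast, had 46.1, 44.3 and 46.6 CPM at 96 h, against 64.0, 68.0 and 69.0 CPM at 0 h (-0.55 ± 0.06, adjusted p = 2.55e-06). Ebna1bp2, a pre-60S assembly factor, had 30.04, 34.4 and 32.1 CPM at 96 h, against 48.5, 52.0 and 48.4 CPM at 0 h (-0.62 ± 0.07, adjusted p = 3.65e-06).

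Noc2l, which escorts early pre-60S particles and is also known as an inhibitor of histone acetylation, had 149.8, 151 and 160.2 CPM at 96 h, against 209, 219.5 and 219 CPM at 0 h (-0.49 ± 0.05, adjusted p = 8.76e-07). Its yeast partner protein is encoded by Noc3l, which had 52.5, 45.8 and 45.8 CPM at 96 h, against 56.0, 47.9 and 55.2 CPM at 0 h, with overlap (-0.14 ± 0.08, adjusted p = 0.132). Noc3l was called lower without the first 96 h library (adjusted p = 0.0350) or the second 0 h library (0.0324), and with no filter (0.0369). Rrp1b had 43.2, 39.2 and 42.6 CPM at 96 h, against 64.3, 59.7 and 71.4 CPM at 0 h (-0.65 ± 0.07, adjusted p = 4.98e-06). Its paralog Rrp1 had 179, 159 and 183 CPM at 96 h, against 178, 186 and 201 CPM at 0 h, with overlap (-0.12 ± 0.06, adjusted p = 0.122). With no filter on low counts, Rrp1 was called lower (adjusted p = 0.0158). So in the main comparison both pairs held a member that fell and a member that did not pass.

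Nip7, an RNA-binding factor of 60S assembly, had 22.4, 22.1 and 22.3 CPM at 96 h, against 24.6, 27.6 and 21.3 CPM at 0 h (-0.14 ± 0.09, adjusted p = 0.221). The helicase gene Ddx56 had 28.9, 32.9 and 28.9 CPM at 96 h, against 31.1, 30.7 and 37.7 CPM at 0 h (-0.13 ± 0.09, adjusted p = 0.230). Both overlapped between groups, and Nip7 was called lower without the third 0 h library (adjusted p = 0.0291). The remaining large-subunit members fell by moderate amounts: the helicase Ddx18 (-0.45), Nop16 (-0.42), the GTPases Gnl3 (-0.35, known as nucleostemin) and Gnl2 (-0.35), and the 28S rRNA methyltransferase Nop2 (-0.29).

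Because partners in a complex did not shift alike, the counts of partner mRNAs were set against each other inside each library, which no choice of scaling can alter. The 10 pairs were chosen after the values of their members were seen, so the direction of each ratio and the separation of its groups follow from that choice. For Nop58 over Nop56 the ratio was 0.478, 0.504 and 0.490 at 96 h, against 0.794, 0.829 and 0.749 at 0 h. For Mphosph10 over Imp4 it was 0.641, 0.562 and 0.745 at 96 h, against 1.27, 1.46 and 1.31 at 0 h, so the ratio, on counts not corrected for length, was below 1 in every 96 h library and above 1 in every 0 h library. For Wdr43 over Wdr75 the ratio averaged 1.757 ± 0.060 at 96 h and 3.002 ± 0.056 at 0 h. Dkc1 over Nop10 averaged 2.32 ± 0.32 at 96 h and 3.68 ± 0.28 at 0 h. Bop1 over Pes1 averaged 0.682 ± 0.053 at 96 h and 0.940 ± 0.043 at 0 h. Rrp1b over Rrp1 averaged 0.240 ± 0.007 at 96 h and 0.346 ± 0.022 at 0 h. None of the 10 ratios overlapped between groups (exact two-sided permutation p = 0.1 each, and 0.1 after adjustment over the 10). Because the same values picked the pairs, these p-values describe the pairs shown and are no evidence of a difference.

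**Figure D3:**
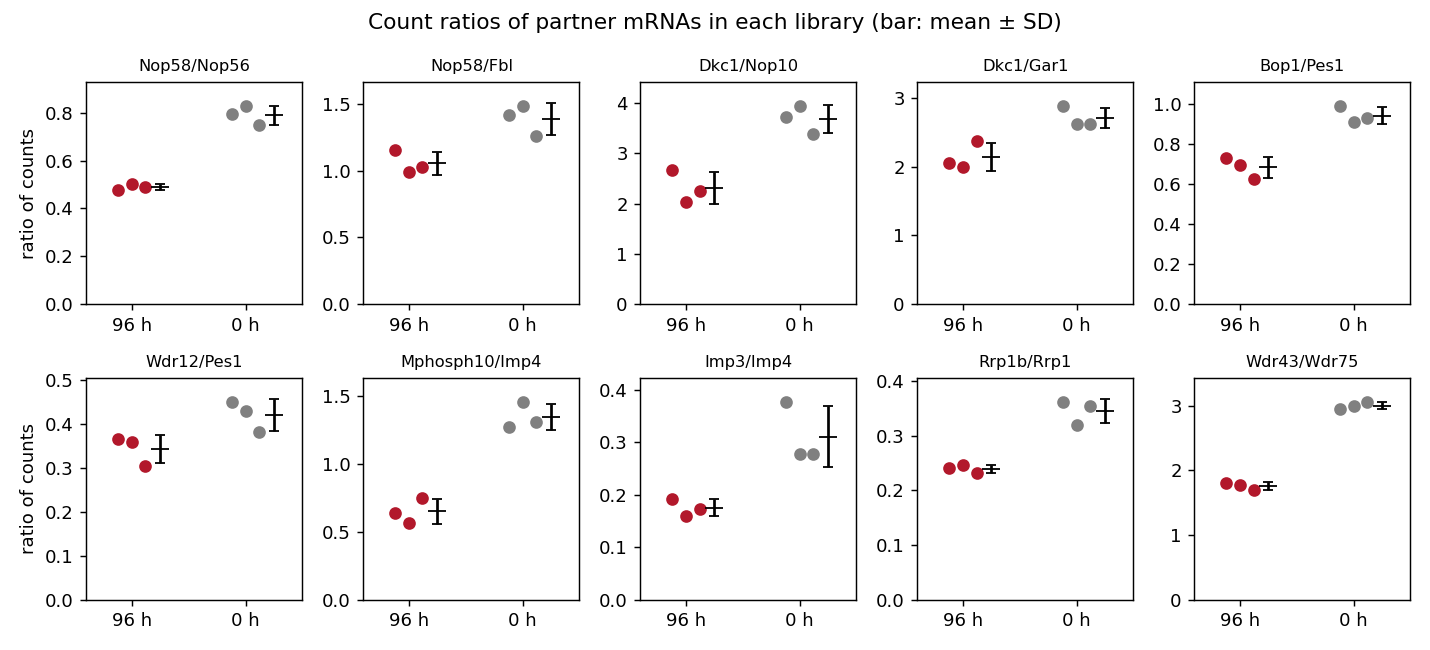
Ratio of the counts of 2 partner mRNAs in each library (vertical axes from 0, no unit) for 10 pairs, with 96 h libraries in red on the left and 0 h libraries in grey on the right. Bars give mean ± SD. All 96 h points lie below all 0 h points in each panel, for pairs chosen after the values were seen.

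The promoters of the members were read for the letters CACGTG, the E-box bound by MYC and its relatives, because ribosome biogenesis genes are known targets of these factors. RefSeq windows (GRCm38.p6, an earlier build than the mm39 of the counts) from 250 bases before to 50 bases after the start were matched by symbol for 44 of the 52 members. The motif, a palindrome, was in 11 of the 44 (25%), in 11.4% of 10152 tested genes with a window and in 7.15% of all 32851 windows. Of the 11 sites, 10 began within 60 bases of the start. CCGGAAG on either strand, letters recognised by ETS factors, was in 17 of 44 members (38.6%), 19.8% of tested genes and 8.86% of all windows. Sequences around 6 sites are shown 5′ to 3′ on the gene's strand, with the E-box in capitals, to set the members described above beside Imp4.
Wdr43: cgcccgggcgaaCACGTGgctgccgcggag
Tsr1: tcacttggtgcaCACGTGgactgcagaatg
Utp18: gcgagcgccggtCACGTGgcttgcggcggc
Ltv1: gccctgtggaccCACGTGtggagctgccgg
Pes1: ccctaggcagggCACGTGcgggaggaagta
Imp4: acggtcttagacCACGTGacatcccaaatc
These stretches lie at chr17:71616220-71616249 (plus strand), chr11:74898092-74898121 (plus), chr11:93885769-93885798 (minus), chr10:13193092-13193121 (minus), chr11:3963965-3963994 (plus) and chr1:34439696-34439725 (plus) in the order listed. The E-box began 17 bases after the start in Wdr43, 24 after in Tsr1, 28 after in Ltv1, 2 after in Pes1 and 20 before in Utp18. In Imp4, the member that rose, it began 121 bases before the start, the farthest of the 11. The median log2 fold change was -0.56 in the 11 members with the E-box and -0.46 in the 33 without it, so members of both kinds were lower. A match of letters is a description of the window, not a binding site.

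Several members also carry snoRNA genes in their introns, so that 1 transcript can give both a processing factor and a guide RNA. In the GENCODE M21 annotation (GRCm38), 21 snoRNA genes lay inside 7 members (Nop56, Nop58, Ncl, Gnl3, Wdr43, Tsr1 and Dkc1) on the same strand, 20 of them in introns of every coding transcript. Of the 21, 19 were matched by symbol in the table and 9 passed the filter on low counts. The sequences of 5 are shown 5′ to 3′ because the products of their hosts, Nop56, Nop58 and Ncl, act on the same precursor RNA. Capitals mark the closest match to box C (TGATGA, at most 1 letter off) in the first 30 bases and the last box D (CTGA) in the final 20, or, for Gm24451, the ACA that stands 3 bases before the end of H/ACA RNAs.
Snord110: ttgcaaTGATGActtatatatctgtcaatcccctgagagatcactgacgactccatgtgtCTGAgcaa
Gm23650: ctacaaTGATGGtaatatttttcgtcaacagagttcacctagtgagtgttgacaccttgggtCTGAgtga
Gm24451: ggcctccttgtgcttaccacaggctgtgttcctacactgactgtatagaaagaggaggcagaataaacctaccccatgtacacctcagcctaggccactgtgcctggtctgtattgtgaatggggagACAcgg
Snord70: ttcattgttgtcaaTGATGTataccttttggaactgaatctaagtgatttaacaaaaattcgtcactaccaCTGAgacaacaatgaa
Snord82: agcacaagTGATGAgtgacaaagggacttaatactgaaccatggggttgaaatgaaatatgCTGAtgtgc
Snord110 (chr2:130275506-130275573, plus strand), Gm23650 (chr2:130277697-130277766, plus) and Gm24451 (chr2:130276237-130276369, plus) lie in introns of Nop56, Snord70 (chr1:59691934-59692020, plus) in an intron of Nop58 and Snord82 (chr1:86356261-86356330, minus) in an intron of Ncl. Letters of this kind for both boxes were found in 26.1% of all 1507 annotated mouse snoRNA transcripts, and the ACA in 18.3%.

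While the host mRNAs fell, 8 of the 9 tested snoRNAs inside them rose and none fell. Gm23650 had 72.0, 118 and 90.1 CPM at 96 h, against 14.4, 16.4 and 21.1 CPM at 0 h (2.44 ± 0.16, adjusted p = 2.37e-08). Gm24451 had 9.26, 10.9 and 11.7 CPM at 96 h, against 1.34, 1.28 and 1.04 CPM at 0 h (3.11 ± 0.21, adjusted p = 2.37e-08). Snord82 had 27.4, 41.7 and 31.9 CPM at 96 h, against 11, 17.9 and 15.3 CPM at 0 h (1.19 ± 0.16, adjusted p = 3.09e-05). In each of these the groups were well separated. The rise was not particular to snoRNAs of these hosts: of 124 snoRNA genes tested, 93.5% were higher, with a median log2 fold change of 2.32, against 1.99 for the 9 inside members. Some of these rows were low at 0 h: Snord110 had 29, 75 and 68 counts at 96 h, against 3, 21 and 14 at 0 h. Below the low-count filter at 0 h, a snoRNA could be tested only with higher 96 h levels. The shares that rose, among the 9 and the 124, carry that selection. The summed snoRNA genes made up 0.204% ± 0.030 of a 96 h library and 0.0587% ± 0.0098 of a 0 h library.

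The other risers were Snord110 (2.47), Gm24916 in Gnl3 (2.26), Gm26293 in Nop58 (1.99), Snord57 in Nop56 (1.87) and Snord70 (1.72). The call of Snord70 (adjusted p = 0.0159) did not hold without the second or the third 96 h library (adjusted p = 0.119 and 0.0525) or without the first or the second 0 h library (0.0664 and 0.0693), and its groups overlapped. Snord70 and Gm26293 are 89.2% identical over 83 aligned bases, so the split of reads between them is uncertain. Gm22858 in Wdr43 had 0.666, 1.46 and 1.34 CPM at 96 h, against 0.671, 0.554 and 0.470 CPM at 0 h and did not pass (1.03 ± 0.45, adjusted p = 0.0674), though it did without the first 96 h library (adjusted p = 0.0418). Per 100 counts of the host, the snoRNAs inside Nop56 had 56.7, 99.4 and 68.3 counts at 96 h, against 8.99, 10.7 and 12.3 at 0 h. The same ratio averaged 19.8 ± 5.5 at 96 h and 2.30 ± 0.79 at 0 h for Nop58, and 18.1 ± 4.6 at 96 h and 2.88 ± 1.28 at 0 h for Gnl3. For Ncl it averaged 1.95 ± 0.48 at 96 h and 0.515 ± 0.104 at 0 h. These ratios, defined after the values were seen, did not overlap between groups. Reads of a mature snoRNA and of an unspliced host intron cannot be told apart in this table, and the recovery of short RNAs in the 2 groups was not tested.

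**Figure D4:**
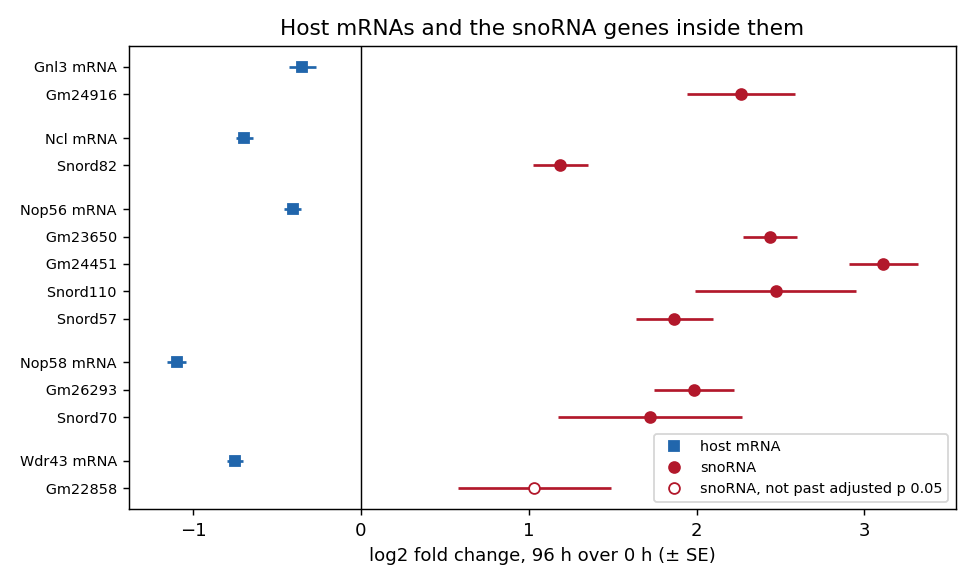
Log2 fold change, 96 h over 0 h (horizontal axis, ± SE), of 5 host mRNAs (blue squares) and of the 9 tested snoRNA genes inside them (red circles, open where the test was not passed). All hosts lie left of 0 and all snoRNAs right of it.

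The rest of the pathway was read from lists of 122 further ribosome biogenesis genes. Of these, 74 were lower, 5 were higher and 43 did not pass, with a median log2 fold change of -0.29. Over all genes tested, 28.8% were lower and 28.7% were higher, the background for each list below. Of 38 other small-subunit factors, 22 were lower, led by Nol7 (12.2 ± 0.5 CPM at 96 h and 25.8 ± 3.0 CPM at 0 h) and Lyar (34.0 ± 2.85 CPM at 96 h and 59.95 ± 5.28 CPM at 0 h). Tsr2, a chaperone of ribosomal protein eS26, and Esf1 were among the 3 that were higher, by 0.21 and 0.16 on the log2 scale. Of 44 other large-subunit factors, 30 were lower, among them Ftsj3 (-0.69) and Nol12 (-0.59), and Wdr18 alone was higher (0.16, adjusted p = 0.0483). The rises of Tsr2, Esf1 and Wdr18 did not hold their direction with library size as the only scaling. Wdr18 was not called without any 1 of the 96 h libraries (adjusted p = 0.108, 0.067 and 0.167) or without the first or the second 0 h library (0.149 and 0.12), and Esf1 was not called without the first or the third 96 h library (0.0821 and 0.0792) or the first or the second 0 h library (0.108 and 0.0606).

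Of 13 snoRNP assembly factors 7 were lower and none higher. Snu13, counted in this list, is itself a core protein of box C/D particles and binds their fold before Nop58 and fibrillarin join. It had 102 ± 2 CPM at 96 h and 186 ± 8 CPM at 0 h (-0.87). The assembly ATPase Ruvbl1 had 57.4 ± 0.4 CPM at 96 h and 75.5 ± 2.5 CPM at 0 h (-0.40). Of 14 RNA exosome genes 9 were lower, with the nuclear nuclease Exosc10 at -0.74 and the helicase Mtrex at -0.54. Of 13 RNA polymerase I transcription genes 6 were lower, among them the subunits Polr1b (-0.44) and Polr1g (-0.41). Taf1d, a subunit of the selectivity factor of RNA polymerase I, was higher at 368 ± 19 CPM at 96 h and 246 ± 28 CPM at 0 h (0.58), and no other of these 13 was. Overlap with snoRNA genes was read for the members only. The part of snoRNA or intron reads in the counts of Taf1d was therefore not tested.

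Among 13 growth regulators of the MYC network, 5 were lower and 5 were higher, beside 28.8% and 28.7% of all genes tested. Whether the list differs from those shares was not tested. Mycn, the family member known for amplification in neuroblastoma, had 25.6, 27.4 and 30.5 CPM at 96 h, against 45.0, 40.9 and 43.1 CPM at 0 h (-0.62 ± 0.08, adjusted p = 1.06e-05). Mga, a large repressor that pairs with MAX, was also lower (-0.38). Mnt and Mxd4, which pair with MAX and repress E-box genes, were higher by 0.92 and 0.46. The other lower genes of the list were Mxd3 (-0.72), Mlx (-0.66) and Max (-0.17). Mxi1 (0.23) and Mycl (2.98) were higher too. Mycl was low, at 1.97 ± 0.55 CPM at 96 h and 0.249 ± 0.327 CPM at 0 h, with 12, 3 and 0 counts in the 0 h libraries. Mxd4 was not called with library size only (0.20, adjusted p = 0.140). Myc, named after its values were seen, had 119.9 ± 2.3 CPM at 96 h and 106 ± 7 CPM at 0 h (0.17 ± 0.06, adjusted p = 0.0166), and its value was -0.08 with library size only. Myc was not called without the first or the third 96 h library (0.0542 and 0.0609) or the second or the third 0 h library (0.105 and 0.0630). Mycn and Myc thus stood on opposite sides of 0 on the TMM scale.

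Free 5S particles are known to hold back MDM2 when ribosome assembly fails, so 9 genes of the 5S RNP and p53 checkpoint were read as well. Of these, 4 were lower and 2 were higher, beside 28.8% and 28.7% of all genes tested, and the difference from those shares was not tested. Rpl11, a protein of the 5S particle, had 302 ± 5 CPM at 96 h and 408 ± 15 CPM at 0 h (-0.43), and Hexim1, which is known to bind nucleophosmin, was at -0.44. Cdkn1a, the CDK inhibitor p21 and a p53 target, had 36.1 ± 1.7 CPM at 96 h and 20.8 ± 2.0 CPM at 0 h (0.80 ± 0.08, adjusted p = 2.00e-06). Mdm4, an inhibitor of p53, was higher by 0.45. The other lower genes of the list were Trp53, which encodes p53 (-0.27), and Cdkn2a (-0.31). Mdm2 (-0.07), Rpl5 (-0.07) and Nop53 (0.15) did not pass. The activity of p53 was not tested.

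Some member values carry a limit of counting. For 18 members an exon overlaps an exon of a gene on the opposite strand that is in the table, and for 7 of these all such partners stayed below 10% of the member in both groups. Of these partners, Pbrm1 (beside Gnl3), Ccnd3 (Bysl) and Idh3b (Nop56) were called lower, as the members were, and Mroh1 (Bop1), Lgals8 (Heatr1), Srr (Tsr1), Carf (Wdr12) and Samd11 (Noc2l) were called higher. Pbrm1 averaged 126 CPM at 96 h and 186 CPM at 0 h, and Gnl3 averaged 51.1 CPM at 96 h and 65.0 CPM at 0 h. On the same strand, annotated exons of Nop56, Nop58, Gnl3 and Ncl overlap snoRNA genes inside them, among them Gm23650 in Nop56 and Gm26293 in Nop58. The split of reads between members and the genes that overlap them was not tested. Its part in the members' changes and in the partner ratios was not tested either. Counts were not whole (off by over 0.01) in 3 or more libraries for Fbl, Npm1, Nop58 and Rrs1, and how the fractions arose was not tested.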

How the data were processed

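Total RNA was depleted of ribosomal RNA, and Takara's SMARTer stranded kit for low-input total RNA gave libraries that were read as paired ends of 150 bases, per the labels' protocols. The authors deposited expected counts (estimated, not normalised) per gene symbol. FastQC 0.12.1, Salmon 1.10.1, DESeq2 1.52.0 and the mouse build mm39 were used, per the submitters' processing notes; what each tool did, the annotation and the strand setting are not given in the sources used.

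Counts were rounded to whole numbers. Genes with low counts were removed with filterByExpr in edgeR 4.0.16 (R 4.3.3), libraries were scaled with TMM factors, and 96 h was compared with 0 h by the quasi-likelihood F test over 13705 genes, with Benjamini-Hochberg adjustment and a threshold of 0.05. Fold changes are log2 values, and the SE is the fold change divided by the square root of F. The script was tested on simulated data. Ratios and shares were compared with exact two-sided permutation tests. Libraries of 1 group differed from each other by more than sampling noise in every pair (chi-square per degree of freedom 6.37 to 13.5).

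The members and lists were chosen with earlier results of these data known. Named in full are all snoRNP and scaffold members, the 4 most significant lower and higher members of each subunit class, all members not called or called higher, the 2 most significant lower and higher genes per list, tested snoRNAs inside members, and members whose call an alternative changes. Biotypes were matched by symbol to RefSeq for 36324 of 40413 genes. Alternatives were other scalings, filters, tools (DESeq2 1.42.0, limma 3.58.1), a stricter threshold, a replicate block and leaving out each library.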

Additional observations from a re-analysis of the deposited data

How the results depend on the processing

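The direction and the call of 40 of the 52 members were the same under all 16 alternatives. The count of lower members ran from 41 (upper-quartile factors, or a threshold of 0.01) to 50 (library size only), and from 42 to 44 when each library was left out in turn. The count of higher members, 1 in the main comparison and all in the small-subunit class, was 2 with upper-quartile factors, with protein-coding genes only and with a stricter filter (at least 50 counts in 3 libraries), and 0 with library size only. The 5 higher genes among the other biogenesis lists became 9 by upper-quartile scaling, 1 with library size only, 8 with protein-coding genes only, 1 with no filter, 8 with the stricter filter, 3 with the Wald test of DESeq2, 2 at a threshold of 0.01, and 2 to 4 when each library was left out. The snoRNAs inside members that were called higher numbered 7 to 11 when each library was left out, and the fit of protein-coding genes holds none of them. Directions reversed with library size only for Ddx10 (-0.21), Esf1 (-0.087), Myc (-0.077), Nop14 (-0.14), Tsr2 (-0.045), Wdr18 (-0.088) and Wdr75 (-0.23), for Wdr75 with no filter (-0.011), and for Ddx10 without the first 96 h library (-0.011, the lowest of a range up to 0.070 when each library was left out); the cause was not tested. With library size only, Nop10, Tcof1, Noc3l, Nip7, Ddx56, Rrp1, Ddx10 and Wdr75 were called lower.

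Replicate numbers are shared between the groups, but same-numbered libraries did not deviate together (correlations -0.0136, 0.0144 and -0.005). These values cannot show whether same-numbered libraries were grown or prepared together. With a replicate block 42 members were lower and 1 higher, and 73 of the other biogenesis genes were lower and 4 higher. Not every library correlated best with its own number. Of the 19 snoRNAs inside members in the table, 10 had too few counts to be tested.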
